A study of Homo sapiens with 12 samples.

Results

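A set of 10 genes of the neuronal cytoskeleton was examined in motor neuron cultures exposed to the organochlorine pesticide cis-chlordane. The 10 rows were chosen by symbol from the 28278 gene symbols of the count table: the neuronal intermediate filament genes NEFL, NEFM, NEFH, INA and PRPH, and the microtubule-associated protein genes MAPT, MAP2, MAP1A, MAP1B and DCX. RNA was sequenced in 12 libraries from WA09-Islet1-GFP, a single human embryonic stem cell line, labelled wild-type, that expresses GFP when the transcription factor Islet1 is expressed. All cultures were differentiated to motor neurons, frozen, thawed and replated, received solvent (DMSO, the control) or 10 µM cis-chlordane for 16 hours, and were sorted by FACS on GFP. The sort gave 4 groups of 3 libraries, namely control GFP-negative, treated GFP-negative, control GFP-positive and treated GFP-positive. The concentration is that of the sample labels, while the methods of the study give a higher one. Treatment was read from the treatment entry of the labels, because every title, also of treated libraries, starts with the word untreated. Replicates are called biological in the labels, and the study defines a biological replicate as a separate thaw of stored cells. By that definition the p-values would measure the spread between thaws. The sequencing methods of the study do not tie a library to a thaw and speak of technical replicates, so the source of the spread is not settled.

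Neurofilaments are the intermediate filaments of axons, and their amount sets the calibre of the axon. They are built from the light, medium and heavy chains NEFL, NEFM and NEFH together with alpha-internexin (INA) or, in neurons with peripheral projections such as motor neurons, peripherin (PRPH). The heavy chain is the last of these to be expressed as neurons mature, and filaments that accumulate in motor neurons are a known feature of amyotrophic lateral sclerosis. Microtubule-associated proteins stabilise and space microtubules: tau (MAPT) mainly in axons, MAP2 in dendrites and the cell body, MAP1B in growing axons, MAP1A in mature neurons and doublecortin (DCX) in young, migrating neurons.

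Sequence is shown for 3 genes only: INA and PRPH, whose treated and control GFP-positive levels differed by over 2-fold, and MAP1A, whose treated and control levels overlapped in GFP-negative but not in GFP-positive cells. INA lies at chr10:103277138-103290346 on the plus strand of hg38, PRPH at chr12:49295147-49298686 on the plus strand and MAP1A at chr15:43510958-43531620 on the plus strand. The first exon of NT5C2 overlaps INA on the opposite strand, the antisense RNA TROAP-AS1 overlaps PRPH, and MAPT-AS1 overlaps MAPT. Unnamed long noncoding RNAs lie on the opposite strand of NEFL, NEFM, NEFH and MAP1B, and an rRNA pseudogene on that of MAP2. The labels name a stranded library kit, but the strand setting of the counting is not given in the sources used here. Reads of all these partners therefore cannot be told apart from those counted for the genes they overlap. RefSeq (GRCh38.p14) promoter sequences were matched for 6 of the 10 genes, namely MAP2, MAP1B, INA, PRPH, MAP1A and DCX. The 250 bases before the annotated start are given 5′ to 3′ for chr10:103276888-103277137 (INA), chr12:49294897-49295146 (PRPH) and chr15:43510704-43510953 (MAP1A), all on the plus strand. Capitals mark matches on either strand to one of these motifs. The TATA box, which places the start of transcription, was searched as TATAAA. The GC box, bound by SP1 and related factors, was searched as GGGCGG. The CCAAT box, bound by NF-Y, was searched by its name. The E-box of neuronal helix-loop-helix factors was searched as CAGCTG. The homeodomain core, a form of the site of factors such as ISL1, was searched as TAATTA.
INA: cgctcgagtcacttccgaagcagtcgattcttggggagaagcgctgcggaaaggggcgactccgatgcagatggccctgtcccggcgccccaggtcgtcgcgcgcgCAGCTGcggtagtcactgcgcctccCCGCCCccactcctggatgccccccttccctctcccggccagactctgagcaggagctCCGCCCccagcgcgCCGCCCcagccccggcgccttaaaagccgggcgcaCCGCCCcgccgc
PRPH: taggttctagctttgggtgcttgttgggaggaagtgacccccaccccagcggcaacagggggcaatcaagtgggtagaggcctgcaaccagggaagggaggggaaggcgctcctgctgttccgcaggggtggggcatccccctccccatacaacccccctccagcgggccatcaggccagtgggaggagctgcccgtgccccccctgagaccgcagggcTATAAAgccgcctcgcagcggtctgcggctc
MAP1A: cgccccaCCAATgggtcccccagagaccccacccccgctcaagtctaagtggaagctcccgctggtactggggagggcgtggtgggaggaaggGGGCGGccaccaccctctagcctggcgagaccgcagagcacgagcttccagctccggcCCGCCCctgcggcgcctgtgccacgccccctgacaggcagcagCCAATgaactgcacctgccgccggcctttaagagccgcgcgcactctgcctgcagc
The INA window held 4 GC boxes and 1 E-box and no TATA box, and 72.8% of its bases were G or C. The PRPH window held 1 TATA box and none of the other motifs at a GC content of 66.8%. The MAP1A window held 2 GC boxes and 2 CCAAT boxes at a GC content of 70.4%. A second annotated MAP1A window, chr15:43517358-43517607, is not printed and held 4 GC boxes and no CCAAT box at a GC content of 59.6%. Of 35116 promoter windows of the same length, 10.7% held the TATA box, 42.6% the GC box, 32% the CCAAT box, 14% the E-box and 4.35% the homeodomain core. These matches describe letters in the window and were not tested as binding sites.

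Library totals ran from 23414935 to 38347050 counts in genes. Levels are given as CPM, counts per 1000000 counts after TMM scaling between all 12 libraries, and the scaling factors ran from 0.8942 to 1.113. Fold changes came from fits scaled on the compared groups only, so they can differ from ratios of the printed mean levels. ISL1, the gene on which the sort rests, stood at 62.4 to 68.6 CPM in control GFP-positive and at 2.41 to 2.79 CPM in control GFP-negative libraries. In treated libraries it stood at 8.01 to 15.3 CPM in GFP-positive and 0.388 to 0.691 CPM in GFP-negative cells. The summed level of 9 motor neuron markers was 1766 to 1968 CPM in control GFP-positive, 521 to 710 in treated GFP-positive, 334 to 377 in control GFP-negative and 117 to 156 in treated GFP-negative libraries. The 10 general neuron markers summed to 14631 to 18501, 7335 to 9367, 6892 to 7876 and 4437 to 5328 CPM in the same order, so transcripts of neurons were also present in the GFP-negative fraction, whose labels give motor neuron as the cell type too. Neural progenitor markers summed to 1813 to 2057 CPM in control GFP-positive and 2437 to 3936 CPM in control GFP-negative libraries, and cycling cell markers to 71.7 to 106 and 536 to 737 CPM. All 5 markers of the ER stress response rose with treatment in both fractions, and HSPA5, the ER chaperone BiP, went from 293 to 358 CPM in control to 2840 to 3650 CPM in treated GFP-positive libraries. By the edgeR test given below, 7 of the 9 motor neuron markers were higher and 1 lower in control GFP-positive than in control GFP-negative cells. Between the fractions of treated cultures, 5 were higher and 1 lower in GFP-positive cells. Of all genes tested, 17.1% were higher and 23.1% lower in control cultures, and 24.9% were higher and 24.9% lower in treated cultures. In bulk RNA, fewer cells of a type and less RNA per cell cannot be told apart.

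All 10 genes were expressed in every library, from 392 counts for NEFH to 236940 counts for NEFM. The 5 filament genes together took 1.15 to 1.57% of all normalised counts in control GFP-positive and 0.361 to 0.382% in control GFP-negative libraries. The 5 microtubule-associated protein genes took 0.384 to 0.532% and 0.143 to 0.235%.

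Levels of different genes were compared only after division by the length of all exons of the gene, in CPM per kilobase. NEFM was the highest of the 10 in control GFP-positive cells, at 1980 ± 419 CPM per kilobase (SD, n = 3), followed by NEFL at 1200 ± 245. INA followed at 334 ± 38.3 and PRPH at 289 ± 75.2, and then DCX at 147 ± 25.6 and MAP1B at 141 ± 34.6. MAP2 stood at 40.6 ± 7.08, MAP1A at 39.3 ± 5.75, MAPT at 12.7 ± 2.27 and NEFH at 5.25 ± 0.781. The neighbours INA and PRPH, DCX and MAP1B, and MAP2 and MAP1A overlapped in their replicates, and the other neighbours did not. Divided by the longest transcript, PRPH stood at 420 ± 109 and MAPT at 34.4 ± 6.14 CPM per kilobase, so that PRPH then ranked above INA and MAPT overlapped MAP1A. Counts per gene do not separate the isoforms of MAPT or MAP2.

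**Figure D1:**
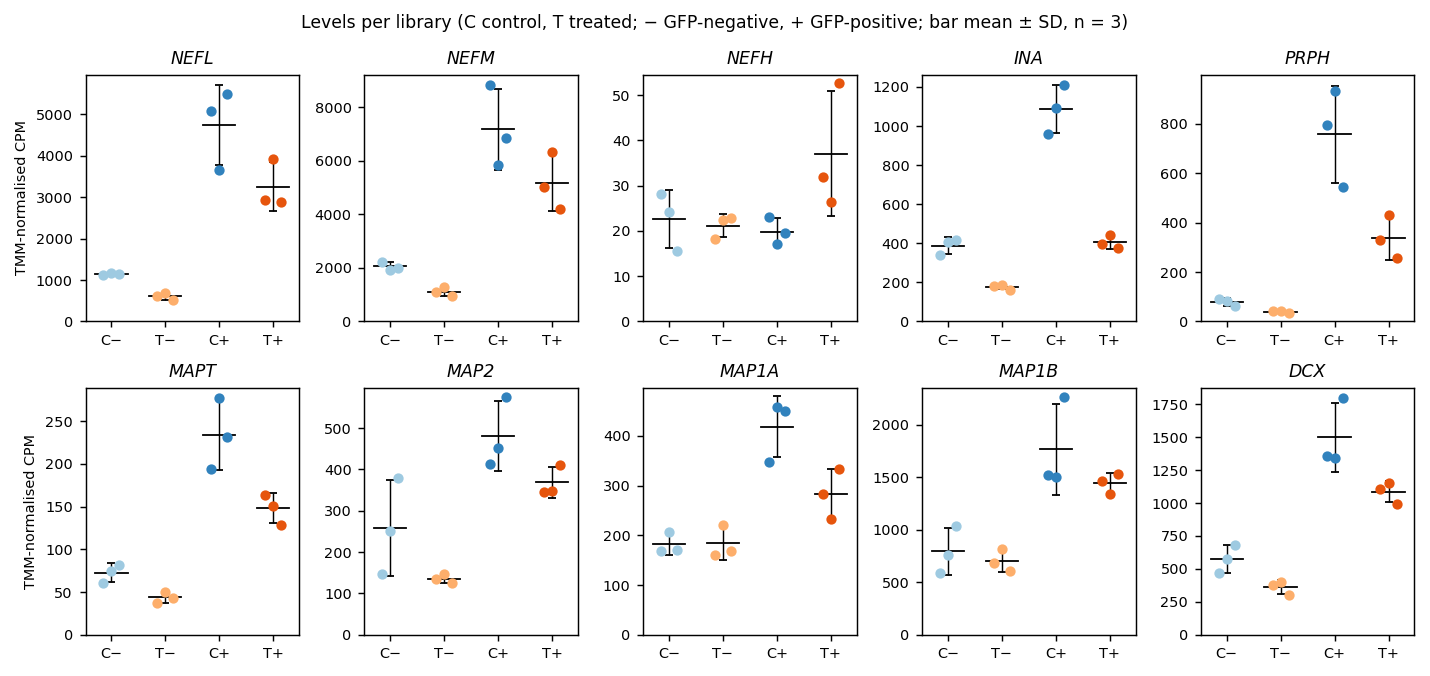
Level of each of the 10 genes in every library, as TMM-normalised CPM on a linear axis from 0, in control (C) and treated (T) GFP-negative (−) and GFP-positive (+) libraries. Points are libraries, and bars give the mean and SD of 3 libraries. Filament and microtubule-associated protein genes are highest in control GFP-positive cells, except NEFH, whose 3 highest values include the 2 treated GFP-positive libraries at 52.7 and 32 CPM.

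The fractions of control cultures were compared to see what the sort on Islet1 separates without treatment. Transcripts of 8 of the 10 genes were higher in GFP-positive than in GFP-negative cells. A gene passed at an adjusted p under 0.05 in the quasi-likelihood test of edgeR, adjusted by Benjamini-Hochberg over every gene tested (edgeR adjusted p), and a gene with a fold change of at least 2 as well is called a DEG. Among 15404 genes tested, 40.2% passed, 17.1% were higher in GFP-positive cells, and 22.8% were DEGs. All 8 were DEGs. The median log2 fold change of the 10 genes was 1.32 and that of all genes -0.02. The 2 fractions did not overlap for 9 of the 10 genes, against 53.2% of all genes.

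Peripherin differed most. PRPH stood at 794, 932 and 544 CPM in control GFP-positive and at 89.6, 84.2 and 60.9 CPM in control GFP-negative replicates 1, 2 and 3, a log2 difference of 3.17 (SE 0.23, edgeR adjusted p = 4.5e-06). The light chain NEFL stood at 5086, 3646 and 5481 CPM against 1126, 1170 and 1146 CPM, a 3.84-fold difference (log2 1.94, SE 0.17, edgeR adjusted p = 1.7e-05). The medium chain NEFM stood at 8833, 5837 and 6869 CPM against 2237, 1923 and 2004 CPM, a 3.25-fold difference (edgeR adjusted p = 4.1e-05). The lowest GFP-positive replicate lay above the highest GFP-negative one for all 3 genes. INA was 2.60-fold higher, at 1086 ± 125 against 388 ± 42.3 CPM (SD, n = 3, edgeR adjusted p = 8.6e-05). The heavy chain did not pass: NEFH stood at 23, 17.1 and 19.5 CPM in GFP-positive and 28.1, 24.2 and 15.6 CPM in GFP-negative cells, with a log2 difference of -0.29 (95% interval -0.79 to 0.22, edgeR adjusted p = 0.34) that ran from -0.48 to -0.11 over 16 other fits.

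Of the microtubule-associated proteins, tau and doublecortin were higher in GFP-positive cells by 3.00-fold (MAPT, 234 ± 41.8 against 72.4 ± 11.2 CPM) and 2.42-fold (DCX, 1498 ± 262 against 575 ± 108 CPM). The related large proteins MAP1A and MAP1B were higher by 2.13-fold (419 ± 61.2 against 182 ± 21.2 CPM) and 2.06-fold (1764 ± 434 against 794 ± 224 CPM), all with n = 3 and edgeR adjusted p between 9.7e-05 for MAPT and 0.0064 for MAP1B. MAP2, the dendritic protein, stood at 414, 453 and 575 CPM in GFP-positive cells and at 148, 250 and 379 CPM in GFP-negative cells. These groups did not overlap, but the log2 difference of 0.78 (95% interval 0.12 to 1.44) missed the limit in the unpaired edgeR test (adjusted p = 0.061). It passed in 7 of 16 other fits and missed the limit in 9. Unpaired fits that passed included DESeq2 (0.81, adjusted p = 0.013), RLE scaling (0.81, edgeR adjusted p = 0.043) and the fit of all 12 libraries (0.89, 0.0077). With the replicate number as a block, which pairs the sorts of the same number, the log2 difference was 0.87 (edgeR adjusted p = 0.0017). Without control GFP-negative replicate 3, whose MAP2 level was the highest of its group, it was 1.19 (edgeR adjusted p = 2.0e-04), and without control GFP-negative replicate 1, the lowest, it was 0.49 (0.058).

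In treated cultures all 10 genes were higher in GFP-positive than in GFP-negative cells, with no overlap for any of them. Of 15416 genes tested, 49.8% passed, 24.9% were higher in GFP-positive cells, 23.7% were DEGs and 57.8% did not overlap. The median log2 difference of the 10 genes was 1.54, against 0.05 over all genes, and 8 were DEGs. PRPH was again the gene with the largest difference (log2 3.11, SE 0.20, edgeR adjusted p = 2.1e-07), followed by NEFL (2.44, SE 0.17, 3.9e-07) and NEFM (2.24, SE 0.18, 1.2e-06). MAP2 was higher by 1.47 on the log2 scale (SE 0.15, edgeR adjusted p = 5.8e-06), and its treated GFP-negative replicates, at 134, 146 and 126 CPM, lay close together. The 2 genes under 2-fold were NEFH (log2 0.83, SE 0.24, edgeR adjusted p = 0.011) and MAP1A (log2 0.64, SE 0.18, edgeR adjusted p = 0.0092). NEFH missed the limit without treated GFP-positive replicate 3 (0.46, edgeR adjusted p = 0.055) or without treated GFP-negative replicate 1 (0.74, 0.054). MAP1A missed it without treated GFP-negative replicate 1 (0.56, edgeR adjusted p = 0.056) and with the trend of counts with transcript length removed (0.16, 0.39). NEFH and MAP1A also missed it in a test against a minimum fold change of 1.5 (edgeR adjusted p = 0.18 and 0.4).

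**Figure D2:**
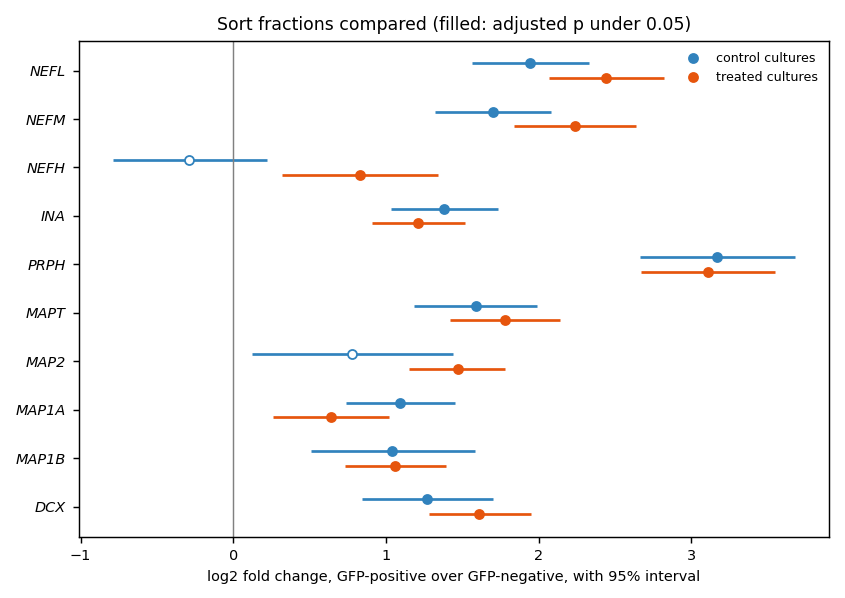
Log2 fold change of GFP-positive over GFP-negative libraries with its 95% interval for each gene, in control and treated cultures (3 libraries per group), with filled points for an edgeR adjusted p under 0.05. PRPH lies farthest to the right in both, at 3.17 and 3.11, and the only open points are NEFH and MAP2 in control cultures.

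Exposure to cis-chlordane was compared with solvent in GFP-positive cells to ask how the motor neuron cytoskeleton genes respond. Of the 10 genes, 7 were lower in treated cells, 1 was higher and 2 did not pass. The 7 were NEFL, NEFM, INA, PRPH, MAPT, MAP1A and DCX, and the higher gene was NEFH. Of 15333 genes tested, 50.9% passed, 26.5% higher and 24.4% lower. Only INA and PRPH were DEGs, and DEGs made up 24.0% of all genes. The median log2 fold change of the 10 genes was -0.44, against 0.03 over all genes. The groups did not overlap for 7 of the 10 genes, against 57.5% of all genes. Over the same libraries 8 of the 9 motor neuron markers and 7 of the 10 general neuron markers were also lower, while 2 general neuron markers were higher (SNAP25 and SYT1). Of the cycling cell markers 4 of 6, and of the floor plate markers 4 of 4, were lower. The neural progenitor markers were mixed, with 5 lower and 2 higher of 9 tested. The part of these markers in the cytoskeleton results was not tested.

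Alpha-internexin fell most. INA stood at 397, 441 and 375 CPM in treated and at 959, 1092 and 1208 CPM in control GFP-positive replicates 1, 2 and 3, a 2.56-fold decrease (log2 -1.36, SE 0.16, edgeR adjusted p = 8.7e-09). The highest treated value lay under the lowest control value, and the log2 fold change ran from -1.44 to -1.25 in 16 other fits, all under the limit. PRPH stood at 329, 432 and 255 CPM in treated and 794, 932 and 544 CPM in control libraries, a 2.13-fold decrease (log2 -1.09, SE 0.19, edgeR adjusted p = 8.7e-06). The peripherin groups did not overlap either. PRPH is the gene richest in G and C of the 10, at 63.4% of the bases of its longest transcript. With the trend of counts with GC content removed, its log2 fold change was -0.62 (edgeR adjusted p = 0.0026).

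Light and medium chains fell less and with less certainty. NEFL stood at 2931, 3931 and 2891 CPM in treated and at 5086, 3646 and 5481 CPM in control GFP-positive libraries, a 1.39-fold decrease (log2 -0.48, 95% interval -0.82 to -0.13, edgeR adjusted p = 0.019). NEFM stood at 5010, 6323 and 4205 against 8833, 5837 and 6869 CPM, a 1.32-fold decrease (log2 -0.41, 95% interval -0.76 to -0.05, edgeR adjusted p = 0.049). For both genes treated replicate 2 lay above control replicate 2, so the groups overlapped. The NEFL call was lost without control replicate 1 (edgeR adjusted p = 0.058), control replicate 3 (0.13), treated replicate 1 (0.078) or treated replicate 3 (0.075). The NEFM call was lost in 10 of 16 other fits. Among them were DESeq2 (log2 -0.43, adjusted p = 0.054), removal of the GC trend (-0.25, edgeR adjusted p = 0.24) and the fits without control replicate 1 (-0.23, 0.31), control replicate 3 (-0.45, 0.078), treated replicate 1 (-0.39, 0.10) or treated replicate 3 (-0.28, 0.24).

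The heavy chain moved the other way. NEFH stood at 32, 26.5 and 52.7 CPM in treated and at 23, 17.1 and 19.5 CPM in control GFP-positive libraries, a 1.95-fold increase (log2 0.97, SE 0.21, 95% interval 0.54 to 1.39, edgeR adjusted p = 2.4e-04). The lowest treated value lay over the highest control value, and treated replicate 3 was the highest. Without that library the log2 fold change was 0.62 (edgeR adjusted p = 0.0031). The call was kept in all 16 other fits, with log2 fold changes of 0.62 to 1.30. Even after this increase NEFH was rare among the filament genes, at 9.76 ± 3.63 CPM per kilobase against 825 ± 150 for NEFL and 1420 ± 294 for NEFM.

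Tau fell among the microtubule-associated proteins from 194, 277 and 232 CPM in control to 164, 151 and 129 CPM in treated GFP-positive libraries (log2 -0.60, SE 0.16, edgeR adjusted p = 0.0027). The groups did not overlap, and only removal of the GC trend (-0.30, edgeR adjusted p = 0.073) and a test against a minimum fold change of 1.5 (0.51) lost the call. MAP1A fell from 348, 458 and 450 to 282, 233 and 334 CPM (log2 -0.50, SE 0.17, edgeR adjusted p = 0.012). Its call was lost without control replicate 2 (-0.43, edgeR adjusted p = 0.054), without treated replicate 2 (-0.39, 0.082) and with the GC trend removed (-0.25, 0.20). DCX fell from 1354, 1341 and 1800 to 1106, 1154 and 996 CPM (log2 -0.40, SE 0.16, edgeR adjusted p = 0.037). That call was lost without control replicate 3 (-0.25, edgeR adjusted p = 0.23), treated replicate 1 (-0.42, 0.073) or treated replicate 3 (-0.34, 0.13) and with scaling by library size alone (-0.30, 0.092), while removal of the GC trend gave -0.69 (4.1e-04). The test against a minimum fold change of 1.5 lost the calls of MAP1A and DCX as well (edgeR adjusted p = 0.76 and 0.97).

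MAP2 and MAP1B did not pass in GFP-positive cells. MAP2 stood at 346, 349 and 411 CPM in treated and 414, 453 and 575 CPM in control libraries, groups that did not overlap, with a log2 fold change of -0.32 (95% interval -0.64 to 0.01, edgeR adjusted p = 0.10). It passed with the GC trend removed (-0.61, edgeR adjusted p = 6.6e-04) or the length trend removed (-0.43, 0.016), and was -0.18 (0.42) without control replicate 3 and -0.21 (0.25) with scaling by library size alone. MAP1B stood at 1462, 1339 and 1527 against 1525, 1502 and 2265 CPM, which overlapped although control replicate 3 was high, with a log2 fold change of -0.22 (95% interval -0.56 to 0.12, edgeR adjusted p = 0.27). With the GC trend removed it was -0.42 (edgeR adjusted p = 0.019), without control replicate 3 it was -0.01 and by library size alone -0.12. MAP2 and MAP1B are among the genes poorest in G and C of the 10, at 42.5 and 44.4% of the bases of their longest transcripts.

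**Figure D3:**
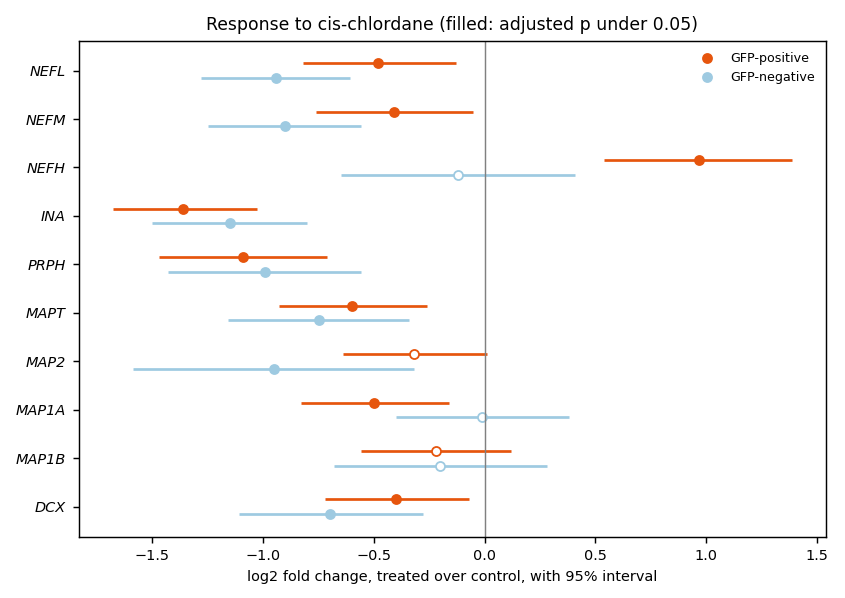
Log2 fold change of treated over control libraries with its 95% interval for each gene, in GFP-positive and GFP-negative cells (3 libraries per group), with filled points for an edgeR adjusted p under 0.05. INA lies lowest in both fractions, at -1.36 and -1.15, and NEFH in GFP-positive cells, at 0.97, is the only filled point to the right of 0.

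The same contrast was made in GFP-negative cells. Again 7 of the 10 genes were lower in treated cells, none was higher, and NEFH, MAP1A and MAP1B did not pass. Of 15513 genes tested, 31.5% passed, 15.3% higher and 16.2% lower, and 18.3% were DEGs, as was 1 of the 10 (INA). The median log2 fold change of the 10 genes was -0.82, against -0.01 over all genes, and 7 did not overlap, against 46.6% of all genes. NEFL, NEFM, INA, PRPH, MAPT and DCX were lower in both fractions. In these libraries 6 of the 9 motor neuron markers, 7 of the 10 general neuron markers, 7 of the 9 neural progenitor markers tested, 6 of 6 cycling cell markers and 4 of 4 floor plate markers were lower as well. SNAP25 and SYT1 were again higher. The part of these cells in the result was not tested.

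INA fell from 339, 409 and 415 CPM in control to 183, 186 and 162 CPM in treated GFP-negative libraries (log2 -1.15, SE 0.15, edgeR adjusted p = 6.1e-04). PRPH fell from 89.6, 84.2 and 60.9 to 42.5, 42.7 and 34.4 CPM (log2 -0.99, SE 0.19, edgeR adjusted p = 0.0041). NEFL fell from 1126, 1170 and 1146 to 607, 687 and 523 CPM (log2 -0.94, SE 0.15, edgeR adjusted p = 0.0014). Unlike in the GFP-positive libraries, the NEFL groups lay well apart. NEFM fell from 2237, 1923 and 2004 to 1099, 1292 and 949 CPM (log2 -0.90, SE 0.15, edgeR adjusted p = 0.0021). No library left out, nor any other scaling, filter or trend removal, lost a call of these 4 filament genes. The test against a minimum fold change of 1.5 lost those of NEFM and PRPH (edgeR adjusted p = 0.059 and 0.057). NEFH stood at 18.2, 22.4 and 22.9 CPM in treated and 28.1, 24.2 and 15.6 CPM in control libraries, with a log2 fold change of -0.12 (95% interval -0.65 to 0.41, edgeR adjusted p = 0.73).

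MAP2 in GFP-negative cells went from 148, 250 and 379 CPM in control to 134, 146 and 126 CPM in treated libraries, a decrease by 0.95 on the log2 scale (log2 -0.95, SE 0.29, edgeR adjusted p = 0.030). The control libraries ranged widely, and control replicate 1 lay just above the highest treated library. The call was lost without control replicate 2 (edgeR adjusted p = 0.075), control replicate 3 (log2 -0.58, 0.058) or any 1 of the treated replicates (0.11, 0.064 and 0.12). MAPT fell from 72.4 ± 11.2 to 43.8 ± 6.5 CPM (SD, n = 3, log2 -0.75, edgeR adjusted p = 0.013) and DCX from 575 ± 108 to 360 ± 52.9 CPM (log2 -0.70, edgeR adjusted p = 0.019). The MAPT call was lost without control replicate 2 (edgeR adjusted p = 0.059) or treated replicate 1 (0.077). The DCX call was lost without control replicate 2 (edgeR adjusted p = 0.068), treated replicate 1 (0.066) or treated replicate 3 (0.069). MAP1A stood at 161, 221 and 169 CPM in treated and 169, 207 and 171 CPM in control libraries (log2 -0.01, 95% interval -0.40 to 0.38, edgeR adjusted p = 0.97). MAP1B stood at 684, 819 and 603 against 588, 762 and 1032 CPM (log2 -0.20, 95% interval -0.68 to 0.28, edgeR adjusted p = 0.52).

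Whether the response differed between the sort fractions was tested by the interaction of treatment and fraction over all 12 libraries. For 0 of the 10 genes was the edgeR adjusted p under 0.05, against 2.19% of 16226 genes, 0.968% higher and 1.22% lower. At an unadjusted p under 0.05 there were 2 of the 10 by edgeR, against 16.6% of all genes, and 1 by DESeq2, against 16.8%, which also gave 0 after adjustment. The first was NEFH, whose log2 fold change was 1.00 higher in GFP-positive than in GFP-negative cells (SE 0.36, 95% interval 0.23 to 1.76, edgeR adjusted p = 0.17). Its adjusted p ran from 0.052 to 0.38 over 20 other fits. The other was MAP1A, with an interaction of -0.58 (SE 0.25, 95% interval -1.10 to -0.05, edgeR adjusted p = 0.25) and adjusted p of 0.13 to 0.55 in the other fits. The remaining genes lay between -0.29 (INA) and 0.55 (MAP2), each with an interval that held 0. With treatment and replicate number together as a block, the calls over all genes rose to 519 higher and 745 lower from 157 and 198. In that fit 0 of the 10 genes passed and 3 had an unadjusted p under 0.05, against 24.5% of all genes.

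Ratios within a library, which do not depend on the scaling between libraries, describe the composition of the filaments' transcripts. With 3 libraries against 3, an exact two-sided permutation test cannot go below 0.1, and 6 such tests were made. Per kilobase, NEFH stood at 0.0113, 0.00701 and 0.0189 of NEFL in treated and at 0.0047, 0.00488 and 0.0037 in control GFP-positive libraries, a 2.6-fold higher ratio with no overlap (exact permutation p = 0.1, adjusted p = 0.2). In GFP-negative cells the ratio of NEFH to NEFL was 0.0311, 0.0339 and 0.0454 in treated and 0.0259, 0.0215 and 0.0142 in control libraries, 1.82-fold higher and also without overlap (exact permutation p = 0.1, adjusted p = 0.2). In the GFP-negative cells NEFH itself did not pass while NEFL fell. INA stood at 0.164, 0.136 and 0.157 of NEFL in treated and 0.228, 0.363 and 0.267 in control GFP-positive libraries, 0.541 of the control ratio (exact permutation p = 0.1, adjusted p = 0.2). In GFP-negative cells the INA to NEFL ratios overlapped, at 0.328 to 0.376 in treated and 0.365 to 0.438 in control libraries (exact permutation p = 0.2, adjusted p = 0.24). The ratio of MAP1A to MAP1B overlapped in both fractions, with log2 differences of -0.31 in GFP-positive (exact permutation p = 0.2, adjusted p = 0.24) and 0.15 in GFP-negative cells (p = 0.9, adjusted p = 0.9). The GFP-positive difference was -0.13 without control replicate 2.

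As shares of the 5 filament genes per kilobase, NEFM made up 51.6% ± 3.99 (SD, n = 3) in control and 56.6% ± 1.72 in treated GFP-positive cells, and NEFL 31.5% ± 3.93 and 32.9% ± 1.69. INA made up 8.94% ± 1.89 and 5.01% ± 0.511, PRPH 7.81% ± 2.91 and 5.1% ± 0.436, and NEFH 0.138% ± 0.00399 and 0.413% ± 0.219. The 2 main chains thus made up most of the filament transcripts in both conditions. In GFP-negative cells PRPH made up 2.95% ± 0.535 of the control and 2.85% ± 0.183 of the treated share, and INA 11.8% ± 1.62 and 10.2% ± 0.743. Among the 5 microtubule-associated protein genes, MAP1B and DCX led in every group. MAP1B made up 36.8% ± 2.39 in control and 40% ± 1.72 in treated GFP-positive cells, and DCX 38.7% ± 1.1 and 37.1% ± 3.57.

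**Figure D4:**
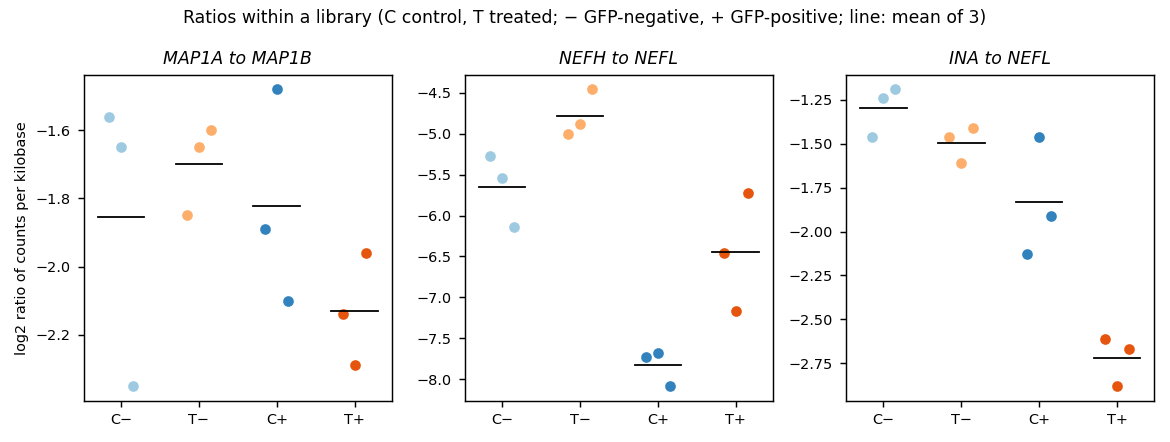
Log2 ratio of counts per kilobase within each library for MAP1A to MAP1B, NEFH to NEFL and INA to NEFL, in control (C) and treated (T) GFP-negative (−) and GFP-positive (+) libraries, with lines at the mean of 3 libraries. In GFP-positive cells all treated points lie above the controls for NEFH to NEFL and below them for INA to NEFL, while the MAP1A to MAP1B points overlap.

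Lists of other genes of the same machinery were set beside the 10 genes in treated against control GFP-positive cells, where 50.9% of all genes passed and the median over all genes was 0.03. Of 19 other structural microtubule-associated proteins tested, 5 were higher, 9 lower and 5 did not pass, with a median log2 fold change of -0.38. Among them TPPP3, of the tubulin polymerisation promoting family, fell from 142 to 32.4 CPM (log2 -2.07, edgeR adjusted p = 8.5e-11), MTUS2 fell from 13.2 to 2.45 CPM (-2.37, 7.1e-10) and MAP7, which recruits kinesin-1 to microtubules, rose from 0.897 to 5.06 CPM (2.55, 1.4e-08). Of 18 end-binding and anchoring proteins, 4 were higher, 6 lower and 8 did not pass (median -0.24). The neuron navigators NAV2 (log2 -1.92, edgeR adjusted p = 6.5e-11) and NAV1 (-1.21, 2.3e-07) fell, and CLIP4 rose (1.10, 1.0e-04). Of 9 severing proteins, 1 was higher, 1 lower and 7 did not pass (median 0.05): FIGNL2, of the fidgetin family, fell from 338 to 114 CPM (log2 -1.50, edgeR adjusted p = 1.0e-09) and KATNBL1 rose (0.55, 0.026).

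Enzymes that modify tubulin numbered 18 tested, of which 3 were higher, 5 lower and 10 did not pass (median -0.17). VASH1, which removes the terminal tyrosine of alpha-tubulin, fell from 212 to 83.7 CPM (log2 -1.27, edgeR adjusted p = 7.9e-08), the polyglutamylase TTLL6 fell (-1.76, 5.4e-08) and the deglutamylase AGTPBP1 rose from 43.3 to 97.5 CPM (1.24, 1.5e-07). Of 22 kinases and phosphatase subunits that act on tau, other microtubule-associated proteins and neurofilaments, 1 was higher, 8 lower and 13 did not pass (median -0.21). CDK5, which phosphorylates tau and the heavy chain, fell from 53.9 to 19.1 CPM (log2 -1.43, edgeR adjusted p = 1.2e-07), as did the phosphatase scaffold PPP2R1A (-0.89, 3.0e-05). Of 13 neurofilament linkers and turnover genes, 1 was higher, 3 lower and 9 did not pass (median -0.25). ANK3, the ankyrin of the axon initial segment, fell from 97.0 to 40.4 CPM (log2 -1.20, edgeR adjusted p = 5.6e-07), the cytolinker PLEC fell (-0.69, 4.5e-04) and the chaperone DNAJB2 rose from 185 to 334 CPM (0.92, 1.7e-05). Of 10 other intermediate filament genes tested, 2 were higher (SYNM, 0.94, edgeR adjusted p = 9.3e-05, and the keratin KRT19, 1.45, 0.0014), 2 were lower (NES and LMNB1, the latter with log2 -0.62, 0.0022) and 6 did not pass (median -0.15).

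**Figure D5:**
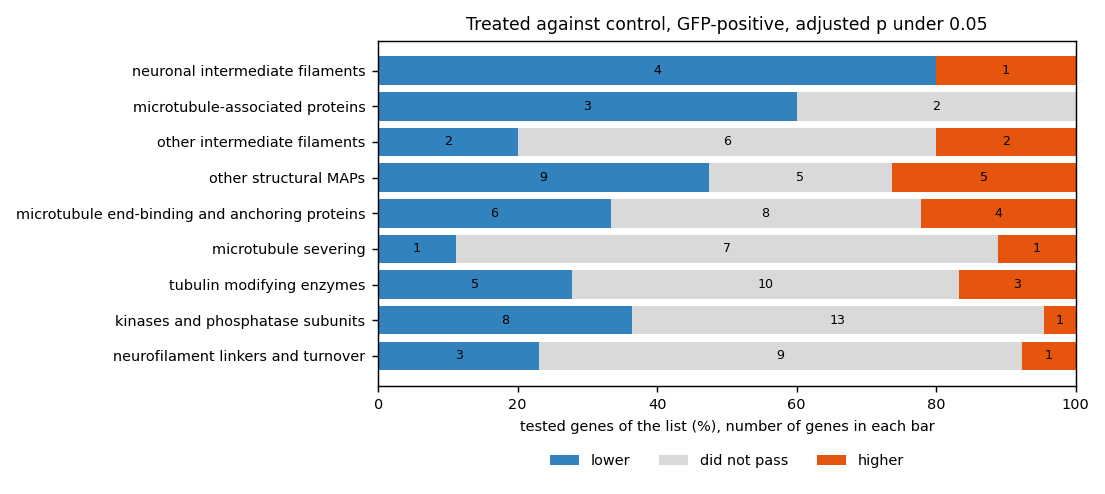
Share of the tested genes of each list, in percent, that were lower, did not pass or were higher with treatment in GFP-positive cells at an edgeR adjusted p under 0.05, with the number of genes printed in each bar. The 5 filament genes hold 4 lower and 1 higher, the 5 microtubule-associated protein genes 3 lower and 2 that did not pass, and the other structural microtubule-associated proteins 9 lower and 5 higher.

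For each of the 10 genes, the gene outside the set with the most similar profile was found among 9637 genes of at least 10 CPM on average, by the root mean square difference of log2 CPM centred on its mean over the 12 libraries. These libraries share their group structure, so the likeness is a description. NEFL and NEFM were closer to each other (0.17 log2 units) than to any outside gene, the nearest being ZNF385D for NEFL (0.22) and RTN1 for NEFM (0.21). INA had the closest profile of all, TMEM35A at 0.07. PRPH was closest to the neuropeptide gene SST (0.17) and MAPT to CDK5R1, which encodes an activator of CDK5 (0.20). MAP2 was closest to SLCO5A1 (0.16), MAP1A to TOM1L2 (0.15), MAP1B to RNF150 (0.13) and DCX to SEZ6L (0.14). NEFH was closest to the antisense RNA THUMPD3-AS1 (0.22) and stood far from the rest of the set, with MAP1A as the nearest at 0.65. The limit on strand given for the overlapped genes, NEFH among them, applies to that RNA as well.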

How the data were processed

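RNA-seq counts of 12 libraries in 4 groups of 3 were analysed. Per the study's methods, the authors concatenated lanes and used HISAT2 with an Ensembl annotation to map the single-end, reverse-strand reads to hg38, and the submitters' processing notes also name featureCounts. The deposited values are raw counts per gene symbol, not normalized, and the handling of strand and of multi-mapping reads in counting is not given in the sources used here. Of the per-sample columns, 0 were left unused. Total counts limit the precision and cover counting error only.

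Counts were tested with edgeR 4.0.16 (R 4.3.3) by the quasi-likelihood F-test, two-sided, with TMM scaling, filterByExpr (minimum count of 10, minimum total of 15) and Benjamini-Hochberg adjustment over all genes tested. Each fit held only the groups compared, and the interaction all 12 libraries. Alternatives were DESeq2 1.42.0, RLE scaling, scaling by library size alone, omission of the filter, a filter of 10 counts in each library and a replicate block. Others were removal by loess (span 0.5) of trends with the GC content or the length of the longest transcript. The rest were 1 fit of all 12 libraries, glmTreat against a fold change of 1.5, and each library left out. Ratios were tested by exact permutation in scipy 1.17.1. Lengths, GC content and positions came from GENCODE release 44 on hg38, which is not the authors' annotation, with 25763 of 28278 symbols matched.

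Named genes were the 10 members, up to 3 genes per list with the largest change among those that passed, without overlap of the groups and at 1 CPM or more on average, and the nearest profile of each member. SNAP25, SYT1, NES and the overlapping genes were named outside this rule. A gene that the rule picks is not reported here. Members, lists and tests were chosen with earlier results of these data known.

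GFP-positive and GFP-negative libraries of the same treatment and number may be sorts of 1 culture. The correlation of their deviations from group means over 16226 genes was 0.38, 0.12 and 0.33 for control cultures. For treated cultures it was 0.20, 0.24 and 0.48. Treated and control GFP-negative libraries of number 2 reached 0.30, so these correlations do not settle the pairing. The main fits held no replicate block. In simulated counts for the treated against control GFP-positive comparison, edgeR recovered 200 of 200 genes changed 3-fold, with 12 false calls among 15181 genes. The members that passed in this comparison changed less, from 1.32-fold (NEFM and DCX) to 2.56-fold (INA). Recovery of changes of that size was not simulated, so the 3-fold result does not bear on how reliably they are called.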

Additional observations from a re-analysis of the deposited data

How the results depend on the processing

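In GFP-positive cells the number of the 10 genes lower with treatment was 2 instead of 7 by glmTreat against a fold change of 1.5, and 4 to 6 with 1 library left out (4 without control GFP-positive replicate 3, treated GFP-positive replicate 1 or treated GFP-positive replicate 3). In GFP-negative cells it was 2 instead of 7 by glmTreat and 4 to 7 with 1 library left out (4 without control GFP-negative replicate 2 or treated GFP-negative replicate 1). Over all genes tested in GFP-positive cells, the number lower was 1708 by glmTreat and 3068 to 3692 with 1 library left out, instead of 3748. In GFP-negative cells the number over all genes was 1098 by glmTreat and 1414 to 2760 with 1 library left out, instead of 2520. Fits with 1 library left out hold fewer libraries, and glmTreat asks for a larger change. The estimates moved as well: in GFP-positive cells NEFM was -0.59 to -0.23 and DCX -0.48 to -0.25 with 1 library left out. Why calls were lost was not tested. The number higher in GFP-positive cells was 8 to 9 in control and 8 to 10 in treated cultures with 1 library left out, and the number with an interaction was 0 in all of them. Over all genes the number higher in these fits was 1812 to 3468 in control and 2778 to 3550 in treated cultures, against 2638 and 3832 in the main fits. The interaction was called in them for 68 to 212 genes higher and 47 to 202 lower. Over the 50 member results, 758 values in other settings kept their direction and their side of the limit, 48 lost the call, 11 gained it and 23 changed sign. The sign changed only for genes that had not passed, and the cause was not tested. In GFP-negative cells NEFH was 0.09 with the GC trend removed and -0.33 to 0.06 with 1 library left out. MAP1A was 0.14 with the GC trend removed, 0.00 with the length trend removed, 0.01 in the fit of all 12 libraries and -0.16 to 0.09 with 1 library left out, and MAP1B was -0.37 to 0.03 in the latter. The interaction of PRPH was 0.06 by library size alone, 0.06 with the GC trend removed and -0.40 to 0.14 with 1 library left out, that of MAPT was -0.06 to 0.32 in the latter, and that of MAP1B was 0.15 by library size alone, 0.05 with at least 10 counts in every library and -0.35 to 0.11 with 1 library left out. The ratio of MAP1A to MAP1B was -0.44 to -0.13 in GFP-positive cells with 1 library left out, and in GFP-negative cells it was -0.10 to 0.30 (log2 treated minus control) with 1 library left out, with -0.10 without control GFP-negative replicate 3.

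Scaling by library size alone moved the median of all genes from 0.03 to 0.14 in treated against control GFP-positive cells, from 0.05 to 0.22 between the fractions of treated cultures and from -0.05 to 0.20 for the interaction, and the share of higher genes among those called from 49.9 to 61.8% between the treated fractions and from 44.2 to 76.0% for the interaction. No member that passed changed direction under any scaling. The interaction was called for 157 genes higher and 198 lower, against 411 and 378 by DESeq2 and 519 and 745 with the replicate block. Treated and control libraries share only a replicate number: their deviations correlated at -0.04, 0.16 and 0.20 in GFP-positive and -0.03, 0.30 and -0.02 in GFP-negative cells, and with the replicate block MAP2 passed in GFP-positive cells (-0.31, edgeR adjusted p = 0.043). The paired fit of the sort fractions changed no call other than that of MAP2 in control cultures. Lists of other genes were not recomputed under other settings. NEFH rests on 392 to 1989 counts per library, and a long noncoding RNA overlaps it on the opposite strand.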

Other observations

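Of 10 other intermediate filament genes tested between the sort fractions of control cultures, 9 were lower in GFP-positive than in GFP-negative cells and none higher (median log2 difference -1.31, against -0.02 over all genes). They were the progenitor filaments NES and VIM, the muscle filament DES, the lamins LMNA, LMNB1 and LMNB2 and the keratins KRT8, KRT18 and KRT19. Of 18 end-binding and anchoring proteins, 10 were higher and 0 lower (0.75), and of 22 kinases and phosphatase subunits that act on tau and neurofilaments, 12 were higher and 0 lower (0.52). Of 19 other structural microtubule-associated proteins 9 were higher and 2 lower (0.58), of 19 tubulin modifying enzymes 9 were higher and 3 lower (0.66), and of 13 neurofilament linkers and turnover genes 7 were higher and 1 lower (0.66). Of 9 severing proteins 2 were higher and 1 lower. Over all genes 40.2% passed the edgeR test, 17.1% higher.

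With treatment, GFP-negative cells had 9 of 19 other structural microtubule-associated proteins lower and 1 higher (median log2 fold change -0.64, against -0.01 over all genes), and 4 other intermediate filament genes higher (VIM, GFAP, DES and KRT19) and 3 lower (NES, LMNB1 and LMNB2) of 11 (0.24). Of the end-binding and anchoring proteins 2 were higher and 5 lower of 18, of the tubulin modifying enzymes 3 and 4 of 18, of the severing proteins 2 and 2 of 9, of the kinases and phosphatase subunits 1 and 4 of 22, and of the linkers and turnover genes 1 and 1 of 13. Over all genes 31.5% passed. The named genes of this paragraph and the one before it are those that passed, and were chosen after their values were seen.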
